A study of Mus musculus with 21 samples.

Results

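The results concern the genes of chromosomes 1 to 19 in bone marrow c-kit+ cells labelled Asxl1-/-Jak2V617F, set against cells labelled Asxl1-/-, so that the groups share the loss of Asxl1 and differ in Jak2V617F. The count table holds 54532 genes, of which 50225 lie on these chromosomes and 15718 of those passed a filter on low counts and were tested. All mice are labelled C57BL/6, and the cells were taken from femur and tibia by magnetic beads against CD117, the product of Kit and the receptor for stem cell factor on blood progenitors. There were 3 libraries of Asxl1-/-Jak2V617F and 2 of Asxl1-/-, beside 3 of Jak2V617F and 3 of WT that carry neither or only the kinase allele and are used here for comparison. The labels give neither age, the promoter or Cre behind either allele, nor whether replicates were separate animals, so the p-values measure the spread between these libraries, which may be partly technical.

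Jak2 is the tyrosine kinase bound to the receptors for erythropoietin, GM-CSF and interleukin-3. On ligand binding it phosphorylates STAT factors, which enter the nucleus and induce targets such as Cish, Pim1 and the Socs inhibitors, and these in turn damp the signal. The V617F form signals without ligand and is the common lesion of myeloproliferative neoplasms. Asxl1 is a chromatin protein that works with the deubiquitinase BAP1, and its loss often accompanies such a kinase lesion in myeloid disease.

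Asxl1 itself (mm10 chromosome 2, 153345829 to 153404007) was at 93.5, 95.1 and 100.4 CPM (read counts scaled to a common library size) in Asxl1-/-Jak2V617F and at 89.0 and 97.0 CPM in Asxl1-/-. All 5 values lay under those of the other genotypes, 161 to 164 CPM in WT and 132 to 196 CPM in Jak2V617F. Gene counts sum all exons, and the labels do not say which exons are deleted. Kit was at 219 to 281 CPM in the 5 libraries and at 232 to 338 CPM in the other 6.

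Total counts were 16198011 to 19196283 per library. In a principal component analysis of the 5 libraries, the main axis (52.6% of the variance) separated the groups, and Asxl1-/-Jak2V617F 3 lay apart from the other 4 on the next (22.9%). Libraries with more than 50 CPM on Y-linked genes were taken as male. Both Asxl1-/- libraries were male (184 and 199 CPM). All 3 Asxl1-/-Jak2V617F libraries were taken as female, with 8.09, 33.3 and 0.727 CPM on Y-linked genes and Xist at 1390.3 to 1551 CPM. The source of the Y-linked reads in Asxl1-/-Jak2V617F 2, the highest of the 3, was not tested. Sex and Jak2V617F thus cannot be told apart in this comparison. The Asxl1-/- libraries also stood apart from the other 9 in RNA composition. Their reads lay less on long genes, with the median of protein-coding genes of at least 8000 bases 1.43 and 1.46 above that of genes of at most 2000 bases, on a log2(CPM + 1) scale, against 1.79 to 1.901 in Asxl1-/-Jak2V617F and 1.95 to 2.01 in WT. Both facts hold for every value below.

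By edgeR's quasi-likelihood test with Benjamini-Hochberg adjustment over all 16262 genes tested, 869 autosomal genes passed an adjusted p of 0.05, 517 higher and 352 lower with Jak2V617F. Over all chromosomes 5.53% of genes were called, 3.31% higher and 2.22% lower. Counts of genes called in the lists below are to be read beside these shares. Rises were smaller than falls: the median log2 change was 0.71 among the risers and -1.37 among the fallers, and 197 risers and 212 fallers differed at least 2-fold. The groups' libraries did not overlap for any of the 869 genes, a state in which 21% of all genes tested were higher and 22.8% lower. The count rested on few libraries. It was 160 without Asxl1-/- 1, 84 without Asxl1-/- 2, 508 without Asxl1-/-Jak2V617F 1, 347 without Asxl1-/-Jak2V617F 2 and 726 without Asxl1-/-Jak2V617F 3. It fell to 51 (50 higher, 1 lower) with a term for sex, which is estimated from the male library among the 3 of Jak2V617F.

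**Figure D1:**
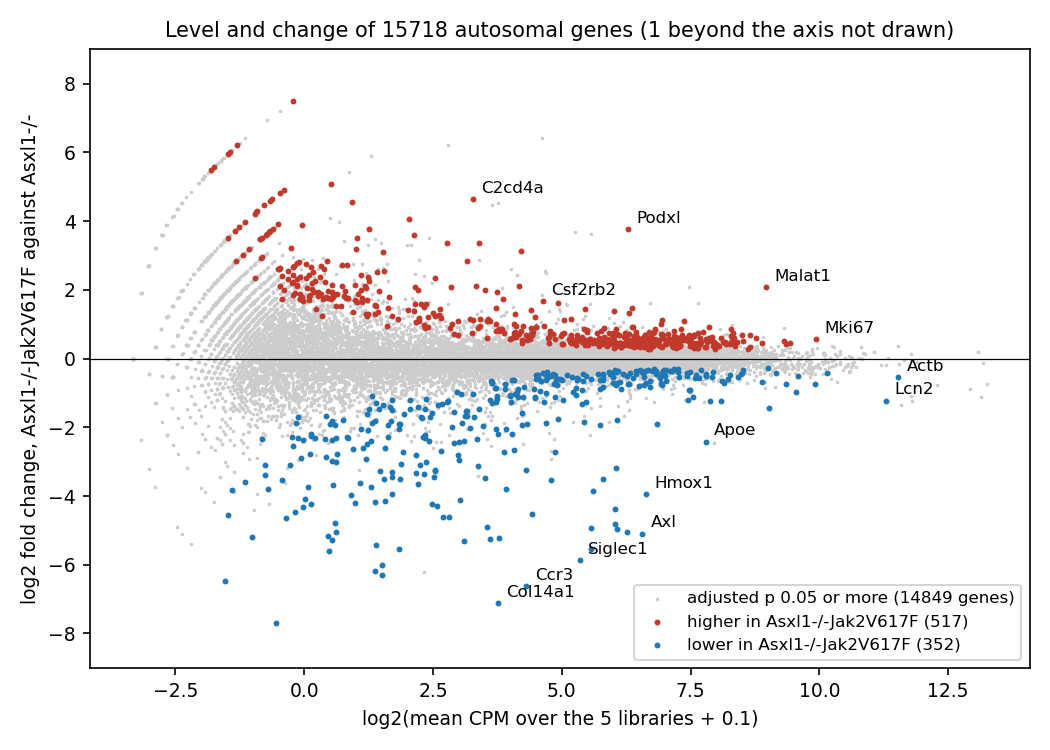
Mean level over the 5 libraries (log2 CPM, horizontal) against the log2 fold change of Asxl1-/-Jak2V617F over Asxl1-/- (vertical), with 1 point per autosomal gene tested; 1 gene beyond 9 on the vertical axis is not drawn. Risers (red, 517) crowd at small changes of well expressed genes, while fallers (blue, 352) reach further, with Siglec1 at -5.87 and C2cd4a on the other side at 4.65.

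Of the 517 risers, 101 were at least 4-fold higher with Jak2V617F. The largest rise under the rule for named genes was that of C2cd4a (chromosome 9, 67830489 to 67832330), which encodes a nuclear protein with a C2 domain. It was at 17.7, 13.04 and 15.8 CPM in Asxl1-/-Jak2V617F and at 0.758 and 0.465 CPM in Asxl1-/-. All 3 libraries with the kinase allele lay above both without it, and the rise was 4.65 ± 0.32 on the log2 scale (SE; edgeR adjusted p = 0.000125), about 25.1-fold. C2cd4a passed in all 13 alternatives tried, the sex term included (adjusted p = 0.00472). Podxl, podocalyxin, a sialomucin of vessels and of blood progenitors (chromosome 6, 31519488 to 31563981), was at 93.7, 113 and 166 CPM against 9.74 and 8.37 CPM. It rose by 3.77 ± 0.44 (adjusted p = 0.00347), and the call was lost without Asxl1-/- 2 and with the sex term (adjusted p = 0.0938). Cda, the cytidine deaminase of pyrimidine salvage, was at 6.40, 5.21 and 8.67 CPM against 0.350 and 0.755 CPM (3.59 ± 0.45, adjusted p = 0.00247). Its groups lay well apart, and the call was lost only with the sex term (adjusted p = 0.0645).

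Plek2, a pleckstrin of the red cell precursor's actin skeleton, was at 2.30, 2.75 and 7.88 CPM against 0.467 and 0.523 CPM (3.10 ± 0.58, adjusted p = 0.0131). Its highest value came from Asxl1-/-Jak2V617F 3. Erfe, erythroferrone, the hormone by which erythroblasts lower hepcidin, was at 6.17, 7.44 and 10.1 CPM against 3.79 and 2.73 CPM (1.27 ± 0.32, adjusted p = 0.0432). Sfrp4, a secreted Wnt antagonist, was at 10.05, 15.5 and 18.0 CPM against 3.27 and 3.43 CPM (2.11 ± 0.42, adjusted p = 0.0204). Fabp5, a fatty acid carrier, was at 62.6, 76.1 and 118.7 CPM against 31.8 and 33.9 CPM (1.39 ± 0.25, adjusted p = 0.0147). Tcrg-C1, a constant region of the T cell receptor gamma locus, was at 15.4, 10.1 and 23.8 CPM against 2.28 and 0.872 CPM (3.38 ± 0.51, adjusted p = 0.00851). Pmaip1, the BH3-only death factor Noxa, was at 24.5, 27.7 and 33.0 CPM against 2.57 and 3.95 CPM (3.12 ± 0.42, adjusted p = 0.00361), with a sex-term adjusted p of 0.0495. Leaving out an Asxl1-/- library ended the calls of Plek2, Erfe, Sfrp4 and Fabp5 in either case, that of Tcrg-C1 without Asxl1-/- 2 and that of Pmaip1 without Asxl1-/- 1. The calls of Erfe, Sfrp4, Fabp5 and Tcrg-C1 were also lost with the sex term, as was that of Plek2; that of Erfe was lost also without Asxl1-/-Jak2V617F 2 or 3, and that of Sfrp4 without Asxl1-/-Jak2V617F 2. Erfe, Fabp5 and Tcrg-C1 lie outside the rule for named genes and were chosen after their values were seen.

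Further risers varied among the libraries with the kinase allele. Fam124a was at 0.954, 6.35 and 11.97 CPM against 0.350 and 0.407 CPM (4.06 ± 0.98, adjusted p = 0.0465), with Asxl1-/-Jak2V617F 1 near the Asxl1-/- values. Ptgs2, the inducible cyclooxygenase, was at 9.20, 3.89 and 18.7 CPM against 0.700 and 1.34 CPM (3.37 ± 0.84, adjusted p = 0.0458). Mgam, a maltase-glucoamylase, was at 131, 129.6 and 72.0 CPM against 38.2 and 41.4 CPM (1.48 ± 0.25, adjusted p = 0.0109), and Nfkbiz, an inducible NF-kB cofactor, at 40.6, 30.3 and 54.1 CPM against 9.92 and 17.4 CPM (1.61 ± 0.31, adjusted p = 0.0159). In these 4 genes all values with the kinase allele lay above both without it. The calls of Fam124a and Ptgs2 passed in 4 of 13 alternatives, those of Mgam, Fam124a and Ptgs2 were lost without either Asxl1-/- library, that of Nfkbiz was lost without Asxl1-/- 1, and all 4 were lost with the sex term.

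The first 9 of these genes, C2cd4a to Pmaip1, were higher with Jak2V617F on the WT background as well, in libraries that the comparison above does not use. Erfe, Fabp5 and Tcrg-C1 among them were picked after their values were seen. In Jak2V617F against WT, where 53.5% of all genes tested were called (24.4% higher, 29.2% lower), C2cd4a rose by 7.52 ± 0.31, Podxl by 6.72 ± 0.43, Cda by 5.47 ± 0.41, Plek2 by 6.03 ± 0.55, Tcrg-C1 by 6.40 ± 0.48 and Erfe by 3.97 ± 0.31. The difference between the 2 backgrounds, tested as an interaction in the same fit, was -2.87 ± 0.49 for C2cd4a (adjusted p = 0.00102), -2.95 ± 0.56 for Podxl (adjusted p = 0.00323), -1.88 ± 0.62 for Cda (adjusted p = 0.0292) and -2.70 ± 0.43 for Erfe (adjusted p = 0.000633). The rises of these 4 were thus smaller on the Asxl1-/- background. For Pmaip1 the difference was 0.57 ± 0.51 and did not pass (adjusted p = 0.395). Other risers did not share this pattern. The difference was 4.09 for Ptgs2, 5.18 for Mgam, 2.27 for Nfkbiz and 4.20 for Selp, a riser given below. Each exceeds the gene's rise on the Asxl1-/- background, so these genes were lower with Jak2V617F on the WT background.

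**Figure D2:**
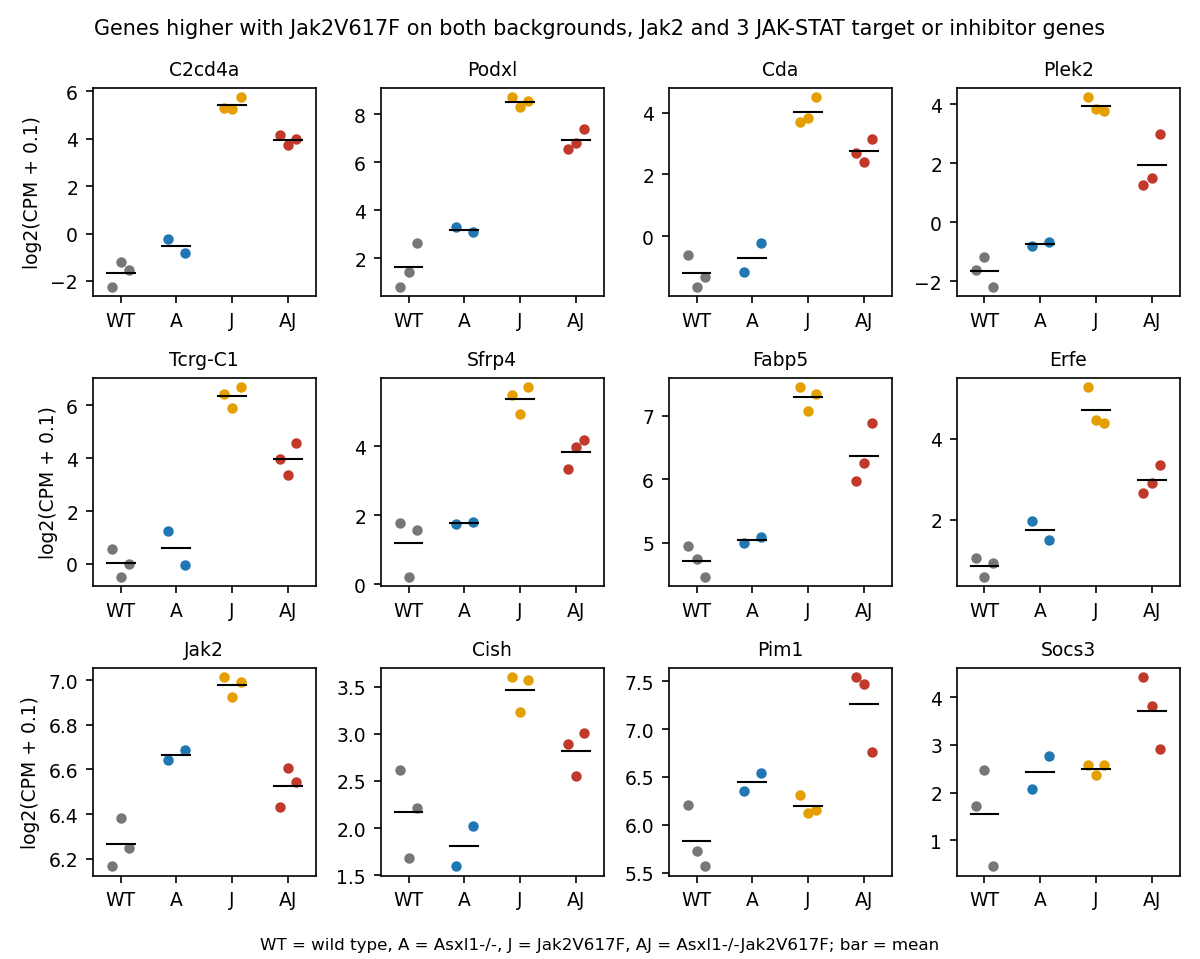
Level of 12 genes in each of the 11 libraries as log2(CPM + 0.1) on a separate vertical axis per gene, with a point per library and a bar for the mean of each genotype. C2cd4a runs from 0.465 CPM at the lowest Asxl1-/- point to 17.7 CPM at the highest Asxl1-/-Jak2V617F point and is higher still in Jak2V617F, while Jak2 is not higher in Asxl1-/-Jak2V617F than in Asxl1-/-.

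Of the 517 risers, 115 were also called higher in Jak2V617F against WT, 148 were called lower and 254 did not pass there. Over all genes tested, 24.4% were called higher there and 29.2% lower, so the risers as a set did not exceed either share. Of the 352 fallers, 216 were also called lower, 32 were called higher and 104 did not pass. STAT factors bind the palindrome TTCNNNGAA, where N is any base. It was searched in the 250 bases before each start site in RefSeq promoters of GRCm38.p6, the assembly of mm10, and it reads the same on both strands. It was found for 8.13% of all 27025 genes in that table and for 8 of the 88 genes matched among the 115 called higher on both backgrounds (9.09%). The upstream bases are shown for C2cd4a, the largest rise, which has no match, for Emilin2, one of the 8, and for Socs3, a STAT target with a match. Capitals mark the palindrome, and each run ends at the base before the start site.
C2cd4a, chr9:67832331-67832580, minus strand: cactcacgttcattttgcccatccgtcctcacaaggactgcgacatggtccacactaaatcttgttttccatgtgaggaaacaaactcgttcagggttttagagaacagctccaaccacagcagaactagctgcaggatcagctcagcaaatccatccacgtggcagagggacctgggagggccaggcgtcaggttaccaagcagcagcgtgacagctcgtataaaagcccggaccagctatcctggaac
Emilin2, the start site, of 2 listed, with a match, chr17:71311012-71311261, minus strand: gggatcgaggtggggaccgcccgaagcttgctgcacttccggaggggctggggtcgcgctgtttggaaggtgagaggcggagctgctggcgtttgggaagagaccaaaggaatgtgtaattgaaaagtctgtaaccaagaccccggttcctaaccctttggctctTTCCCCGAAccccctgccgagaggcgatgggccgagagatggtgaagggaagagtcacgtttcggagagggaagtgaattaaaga
Socs3, chr11:117969367-117969616, minus strand: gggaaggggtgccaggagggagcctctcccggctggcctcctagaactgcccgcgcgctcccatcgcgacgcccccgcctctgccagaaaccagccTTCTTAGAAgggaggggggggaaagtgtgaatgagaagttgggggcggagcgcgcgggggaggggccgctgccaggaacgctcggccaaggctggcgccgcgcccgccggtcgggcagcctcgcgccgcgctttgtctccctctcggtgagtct
Emilin2, an extracellular matrix glycoprotein, was at 208, 169 and 163 CPM against 121 and 115 CPM (0.60 ± 0.14, adjusted p = 0.0335) and is named for this sequence, after its values were seen; its call was lost in 4 of the 5 fits that left out a library and with the sex term. A match is only these letters in this window, and no match says nothing of sites elsewhere.

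Among 20 cytokine receptor genes tested, 1 rose, 0 fell and 19 did not pass (median log2 0.08, against -0.0018 over all genes tested). The riser was Csf2rb2, the mouse-specific beta subunit of the interleukin-3 receptor, at 48.0, 30.7 and 23.9 CPM against 9.28 and 12.1 CPM (1.68 ± 0.36, adjusted p = 0.0255). Its near-identical neighbour Csf2rb, the shared beta subunit for GM-CSF, interleukin-3 and interleukin-5, was at 302, 239 and 160.0 CPM against 141 and 159.7 CPM and did not pass (0.63 ± 0.23, adjusted p = 0.144). Reads of the pair can be split between them, so the call for Csf2rb2 is uncertain, and it was also lost without either Asxl1-/- library or Asxl1-/-Jak2V617F 2 and with the sex term (adjusted p = 0.286). The erythropoietin receptor Epor (-0.33 ± 0.23, adjusted p = 0.451) and the G-CSF receptor Csf3r (0.06 ± 0.27, adjusted p = 0.924) did not pass.

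None of the 11 JAK and STAT genes passed in edgeR's fit of all libraries, and none did in DESeq2; 1 was higher at an unadjusted p under 0.05. Over all genes tested 11.6% were higher and 10.1% lower at an unadjusted p under 0.05, and such counts in the lists below are to be read beside these shares. Jak2 (chromosome 19, 29251828 to 29313080) was at 86.1, 97.3 and 93.1 CPM in Asxl1-/-Jak2V617F and at 99.8 and 103 CPM in Asxl1-/-. The 3 values lay just under the 2, and the difference did not pass (-0.14 ± 0.09, adjusted p = 0.385). In Jak2V617F against WT Jak2 rose by 0.71 ± 0.08 (adjusted p = 1.84e-05), and the difference between backgrounds was -0.85 (adjusted p = 0.000273). Gene counts do not show which allele was read. Stat5a and Stat5b, the factors downstream of the erythropoietin receptor, were at -0.11 ± 0.14 and -0.02 ± 0.10, and Stat3 was at -0.01 ± 0.15.

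Of 20 inhibitors of the pathway 2 rose, against 3.31% of all genes tested. Cbl, a ubiquitin ligase for activated receptors and kinases, was at 387, 378 and 338 CPM against 228 and 234 CPM (0.67 ± 0.12, adjusted p = 0.0118), and it passed with the sex term (adjusted p = 0.0452) but not without either Asxl1-/- library. Socs4 was at 81.9, 90.7 and 74.3 CPM against 58.3 and 65.5 CPM (0.41 ± 0.11, adjusted p = 0.0482), a call lost with the sex term and in 4 of the 5 fits that left out a library. Both Asxl1-/- values lay below the WT range, where Cbl was at 361 to 441 CPM and Socs4 at 79.4 to 85.1 CPM. The negative regulator Sh2b3, also called Lnk, was at -0.28 ± 0.10 (adjusted p = 0.149).

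Of 21 STAT target genes tested, 0 passed in edgeR's fit of all libraries, while 7 had positive and 4 negative changes at an unadjusted p under 0.05; DESeq2 called 5 higher and 1 lower. The median over the list was 0.00, with 11 positive and 10 negative changes. Pim1, a survival kinase, was at 186, 177 and 109 CPM against 81.6 and 92.9 CPM (0.85 ± 0.24; adjusted p = 0.0709 in edgeR and 0.00523 in DESeq2). Cish, the feedback inhibitor induced by STAT5, was at 7.30, 5.78 and 7.94 CPM against 2.92 and 3.95 CPM (1.03 ± 0.30; adjusted p = 0.0695 and 0.0132). For Pim1 and Cish the groups' libraries did not overlap, a state in which 21% of all genes tested were higher. Socs3, whose promoter is printed above, was at 21.3, 13.9 and 7.45 CPM against 4.14 and 6.74 CPM (1.39 ± 0.55; adjusted p = 0.174 and 0.0501). Osm, oncostatin M, was at 50.9, 32.7 and 86.1 CPM against 21.2 and 26.8 CPM (1.23 ± 0.37; adjusted p = 0.086 and 0.00427). Id2 went the other way, by -0.71 in DESeq2 (adjusted p = 0.0576 in edgeR and 0.0148 in DESeq2). It was the member that DESeq2 called lower, and its edgeR adjusted p was smaller than those of Pim1, Cish, Socs3 and Osm. Ccnd3 was also lower (-0.43 in DESeq2, adjusted p = 0.0914 in edgeR and 0.063 in DESeq2). The summed level of the 21 genes was 1965 to 2240 CPM in Asxl1-/-Jak2V617F and 1885 to 1953 CPM in Asxl1-/-.

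Immediate early genes, which respond within minutes to many stimuli and to tissue handling, were higher in sum. Their 22 members together made 1728 to 2131 CPM in Asxl1-/-Jak2V617F and 931 to 1212 CPM in Asxl1-/-, with no overlap, against 479 to 616 CPM in Jak2V617F and 555 to 893 CPM in WT. None passed in edgeR's fit of all libraries, 7 were higher at an unadjusted p under 0.05, DESeq2 called 5, and an edgeR fit of the 2 groups alone called 4. The list's median was 0.60, and 20 of the 22 changes were positive. Fos, an AP-1 subunit, was at 246, 263 and 311 CPM against 75.0 and 103 CPM (1.62 ± 0.50, adjusted p = 0.106). Fosb, its paralogue, was at 45.0, 70.5 and 109 CPM against 5.19 and 7.03 CPM (3.61 ± 1.24, adjusted p = 0.145). Dusp1, a phosphatase that ends MAP kinase signals, was at 129, 124 and 179.9 CPM against 40.4 and 53.8 CPM (1.62 ± 0.44, adjusted p = 0.074). In these 3 genes the libraries of the 2 groups did not overlap, a state in which 21% of all genes tested were higher.

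Genes of resident marrow macrophages were much lower with Jak2V617F. These cells sit at the centre of erythroblast islands, engulf expelled nuclei and dying cells, and recycle haem iron. Of 20 such genes 17 fell and 3 did not pass, with a median log2 change of -4.16, against 2.22% of all genes tested that fell. Siglec1, the sialic acid receptor CD169 (chromosome 2, 131069220 to 131086765), was at 1.12, 1.14 and 2.87 CPM in Asxl1-/-Jak2V617F and at 62.3 and 136 CPM in Asxl1-/-. The Asxl1-/- values differed from each other by over a factor of 2 but lay far above the 3 others (-5.87 ± 0.89, adjusted p = 0.0118). Spic, the transcription factor of red pulp and marrow macrophages, was at 0.505, 0.629 and 1.1605 CPM against 22.5 and 35.8 CPM (-5.25 ± 0.81, adjusted p = 0.00978).

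Mertk, a receptor kinase for dying cells, was at 0.393, 0.343 and 0.794 CPM against 15.0 and 25.7 CPM (-5.31 ± 0.85, adjusted p = 0.011). Axl, the other receptor of that kinase family on the list, was at 4.83, 4.98 and 10.1 CPM against 171 and 282 CPM (-5.09 ± 0.72, adjusted p = 0.00978). Cd163, the receptor for haemoglobin bound to haptoglobin, was at 6.06, 8.98 and 8.001 CPM against 81.8 and 138 CPM (-3.84 ± 0.38, adjusted p = 0.00238), and it passed in 12 of 13 alternatives, failing with the sex term (adjusted p = 0.0938). The mannose receptor Mrc1 was at 4.71, 4.75 and 5.92 CPM against 119.7 and 202 CPM (-4.97 ± 0.67, adjusted p = 0.00789). The 3 chains of complement C1q fell together, C1qa by 5.05 ± 0.78, C1qb by 4.37 ± 0.75 and C1qc by 4.82 ± 0.79. Cd5l, a secreted scavenger protein (-4.92 ± 0.74), and Maf, a transcription factor of macrophages (-3.79 ± 0.63), also fell.

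Of 13 iron handling genes 3 fell, Hmox1, Slc40a1 and the ferritin light chain gene Ftl1 (-0.67), a count of 1 without Asxl1-/- 1 or Asxl1-/-Jak2V617F 1 or 2, and of 0 without Asxl1-/- 2 or with the sex term. Hmox1, haem oxygenase, was at 14.1, 10.01 and 19.7 CPM against 199.9 and 253 CPM (-3.95 ± 0.64, adjusted p = 0.0147). Slc40a1, ferroportin, the iron exporter that erythroblasts also express, was at 125, 112 and 146 CPM against 226 and 329 CPM (-1.12 ± 0.20, adjusted p = 0.0118). Hmox1 and Slc40a1 are also on the macrophage list. Apoe, of the macrophage list only, was at 80.9, 79.4 and 83.9 CPM against 301 and 568 CPM (-2.42 ± 0.32, adjusted p = 0.00564). The 3 members of the macrophage list that did not pass were Vcam1 (-2.44 ± 0.68, adjusted p = 0.0834), Marco (-2.23 ± 1.18, adjusted p = 0.303) and Cd300ld (-0.17 ± 0.65, adjusted p = 0.915).

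The summed level of the list was 360 to 410 CPM in Asxl1-/-Jak2V617F, 2149 and 3524 CPM in Asxl1-/-, 1200 to 2351 CPM in WT and 266 to 573 CPM in Jak2V617F. The 2 groups with the kinase allele lay below both without it. In Jak2V617F against WT 18 of the 20 genes fell, with a median of -2.09, and the difference between backgrounds passed for 4 of the 20. Over all genes tested, 29.2% fell there and the difference passed for 41.6%. In bulk RNA fewer macrophages and less of this RNA per cell cannot be told apart. The male Jak2V617F library had the highest sum of its group, 573 CPM, against 422 and 266 CPM in the female ones. With the sex term none of the 20 was called in edgeR, while the fallers named here kept a negative sign, and DESeq2 without that term called 18. The 17 calls became 12 without Asxl1-/- 1, 2 without Asxl1-/- 2, 12 without Asxl1-/-Jak2V617F 1 and 10 without Asxl1-/-Jak2V617F 2.

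**Figure D3:**
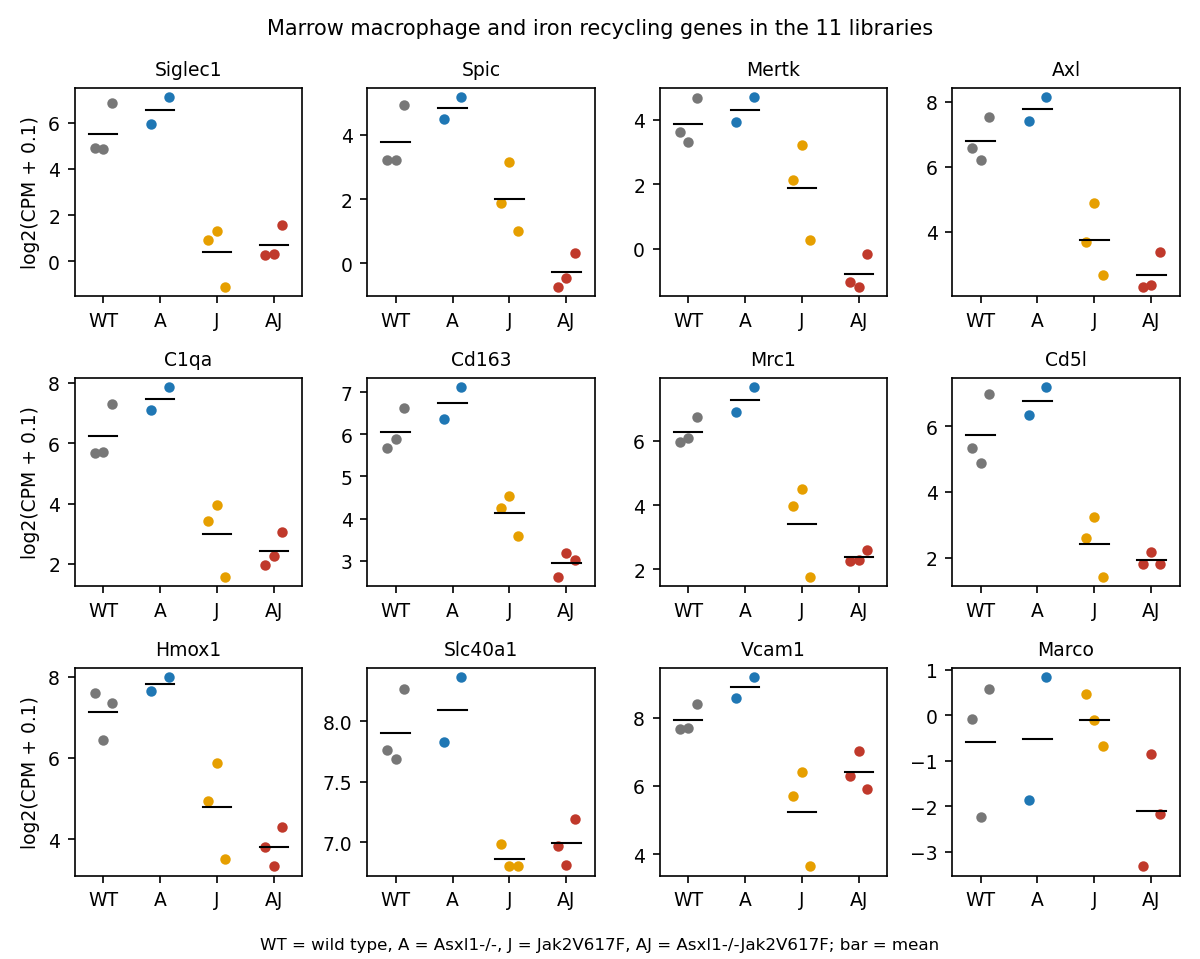
Level of 12 marrow macrophage genes in each of the 11 libraries as log2(CPM + 0.1), with a point per library, a bar for the mean of each genotype and a separate vertical axis per gene. In every panel but that of Marco both Asxl1-/- points lie above the 3 Asxl1-/-Jak2V617F points, from 1.12 to 2.87 CPM against 62.3 and 136 CPM for Siglec1.

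The letters GAGGAAGT, a core bound by the myeloid factor PU.1, were searched on both strands of the same 250 upstream bases. They were found for 2.79% of all genes and for 2 of the 13 macrophage genes matched to a promoter (15.4%). The sequences of the neighbouring C1q genes are shown because the chains fell together: C1qc has a match, read on the other strand and marked in capitals, and C1qb has none.
C1qc, GRCm38.p6 chr4:136892915-136893164, minus strand: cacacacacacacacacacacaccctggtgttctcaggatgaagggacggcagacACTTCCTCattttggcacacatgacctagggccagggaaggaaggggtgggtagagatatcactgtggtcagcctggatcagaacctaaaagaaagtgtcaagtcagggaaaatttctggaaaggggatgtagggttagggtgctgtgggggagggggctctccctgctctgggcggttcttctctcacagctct
C1qb, GRCm38.p6 chr4:136886201-136886450, minus strand: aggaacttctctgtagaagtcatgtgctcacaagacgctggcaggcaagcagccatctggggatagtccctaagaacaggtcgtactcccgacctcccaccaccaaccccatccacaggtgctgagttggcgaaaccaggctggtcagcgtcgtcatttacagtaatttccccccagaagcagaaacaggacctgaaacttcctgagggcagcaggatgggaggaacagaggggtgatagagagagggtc
The other match was in Cd300ld, which did not pass the test.

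Several large falls lay outside that list. Ccr3, an eotaxin receptor (chromosome 9, 124021972 to 124031689), was at 0.337, 0.286 and 0.855 CPM against 38.7 and 58.6 CPM (-6.62 ± 0.78, adjusted p = 0.00361), with 15.3 to 45.8 CPM in WT and 2.06 to 7.06 CPM in Jak2V617F. Of the 11 eosinophil genes tested, Ccr3 and the ribonuclease gene Ear2 (-1.08 ± 0.27, adjusted p = 0.042) fell and 9 did not pass. Over all genes tested 2.22% fell. The Ear2 call was lost in 4 of the 5 fits that left out a library and with the sex term, and that of Ccr3 with the sex term (adjusted p = 0.105). Col14a1, a collagen of fibrils, was at 0.281, 0 and 0.428 CPM against 22.8 and 43.7 CPM. Slco2b1, an organic anion transporter, was at 0.674, 0.572 and 1.40 CPM against 23.9 and 41.8 CPM (-5.22 ± 0.65, adjusted p = 0.00361). Vstm4 had 0 counts in all 3 Asxl1-/-Jak2V617F libraries and 95 and 161 counts in Asxl1-/-, so no fold is given.

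Of 19 monocyte genes 6 fell and 13 did not pass (median -0.27), against 2.22% of all genes tested that fell. The fallers included the cathepsin Ctss (-1.80 ± 0.33, adjusted p = 0.0184), the lysosomal Psap (-0.98 ± 0.16, adjusted p = 0.00789) and the adaptor Tyrobp (-0.92 ± 0.17, adjusted p = 0.012). The 6 calls became 2 without Asxl1-/- 1, 0 without Asxl1-/- 2, 2 without Asxl1-/-Jak2V617F 1, 1 without Asxl1-/-Jak2V617F 2, 3 without a filter and 0 with the sex term. The chemokine receptor Ccr2 of circulating monocytes was at 97.5, 104 and 78.4 CPM against 47.4 and 57.9 CPM and did not pass (0.83 ± 0.35, adjusted p = 0.211).

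None of 15 primary granule genes passed in edgeR or in DESeq2, and 0 had an unadjusted p under 0.05 (median 0.02). Mpo, myeloperoxidase, was at 10939, 10367 and 6096 CPM against 8153 and 7838 CPM, with Asxl1-/-Jak2V617F 3 lowest (0.19 ± 0.27, adjusted p = 0.737). Of 20 late neutrophil genes 1 fell and 19 did not pass, although 18 changes were negative (median -0.75) and 7 had an unadjusted p under 0.05. Other fits called more of them lower, 5 in DESeq2, 6 in edgeR without the Jak2V617F libraries and 8 in edgeR with the 2 groups alone, and none was called with any 1 of the 5 libraries left out, with the sex term or without a filter. The faller was Lcn2, the siderophore-binding lipocalin, at 1819.8, 1479 and 1594 CPM against 3772 and 3869 CPM (-1.23 ± 0.29, adjusted p = 0.0372). That call was lost without any 1 of the 5 libraries and with the sex term (adjusted p = 0.558). The summed late neutrophil level was 28712 to 35383 CPM in Asxl1-/-Jak2V617F and 61128 and 63280 CPM in Asxl1-/-.

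Of 14 erythroid factors 1 fell, Nfe2, which drives globin and platelet genes, at 135, 138 and 135 CPM against 178 and 176 CPM (-0.38 ± 0.09, adjusted p = 0.0345). The Nfe2 call was lost without any 1 of the 5 libraries and with the sex term (adjusted p = 0.677). Of 17 red cell membrane and skeleton genes 1 fell, the fatty acid receptor Cd36, at 1.96, 2.69 and 2.44 CPM against 5.13 and 8.08 CPM (-1.48 ± 0.26, adjusted p = 0.0102), a call lost without Asxl1-/- 2 and with the sex term. None of 12 haem synthesis genes or 5 globin genes passed in edgeR or DESeq2, with 1 and 0 at an unadjusted p under 0.05. In Jak2V617F against WT all 17 membrane genes and 8 of 12 haem synthesis genes rose. The difference between backgrounds passed for 15 of the 17 and 9 of the 12. Over all genes tested, 24.4% rose there and the difference passed for 41.6%.

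Of 22 megakaryocyte and platelet genes 4 fell and 1 rose (median -0.37), against 2.22% of all genes tested that fell and 3.31% that rose. Pf4, platelet factor 4, was at 5.22, 8.47 and 6.54 CPM against 11.7 and 15.8 CPM (-1.03 ± 0.25, adjusted p = 0.0361). Mmrn1, multimerin of platelet granules (-1.26 ± 0.23, adjusted p = 0.012), and the tetraspanin Cd9 (-0.76 ± 0.15, adjusted p = 0.0157) fell too. These 3 calls were lost without either Asxl1-/- library and with the sex term, that of Pf4 also without Asxl1-/-Jak2V617F 1 or 3 and that of Cd9 without Asxl1-/-Jak2V617F 2. Selp, P-selectin, rose from 1.93 and 1.86 CPM to 18.4, 15.6 and 6.66 CPM (2.83 ± 0.60, adjusted p = 0.0237), a call lost without either Asxl1-/- library, without Asxl1-/-Jak2V617F 1 or 2 and with the sex term (adjusted p = 0.667). None of 20 stem cell genes passed in edgeR's fit of all libraries; 4 were lower at an unadjusted p under 0.05, and 3 were called lower in DESeq2 and 3 in edgeR without the Jak2V617F libraries.

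All 17 B lymphoid genes had negative changes (median -1.67), and 2 passed, against 2.22% of all genes tested that fell. These were the recombinase gene Rag2 (-2.29 ± 0.48, adjusted p = 0.021) and the surrogate light chain gene Vpreb3 (-2.71 ± 0.64, adjusted p = 0.0439). The sum of the 17 genes was 99.9, 84.3 and 281 CPM in Asxl1-/-Jak2V617F, highest in library 3, and 374 and 715 CPM in Asxl1-/-. Both calls were lost without either Asxl1-/- library or Asxl1-/-Jak2V617F 2 and with the sex term, while 7 of the 17 were called lower without Asxl1-/-Jak2V617F 3. The sum of 20 T and NK cell genes overlapped, at 181 to 310.4 CPM against 276 and 297 CPM. Among 30 interferon-stimulated genes none passed in edgeR's fit of all libraries, 12 were lower at an unadjusted p under 0.05 and DESeq2 called 4 lower; an edgeR fit of the 2 groups alone called 14 lower. Their median was -1.34, and their sum was 511 to 778 CPM in Asxl1-/-Jak2V617F, 1175 and 1629 CPM in Asxl1-/- and 633 to 2295 CPM in WT, so the WT libraries alone spanned a wider range than the gap between the groups. Cpa3, the mast cell carboxypeptidase, was at 30.1, 28.3 and 26.3 CPM against 71.9 and 63.9 CPM (-1.27 ± 0.16, adjusted p = 0.00247), with 27.6 to 28.6 CPM in WT. It was the 1 of 13 mast cell and basophil genes that passed, and its call was lost with the sex term (adjusted p = 0.114).

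**Figure D4:**
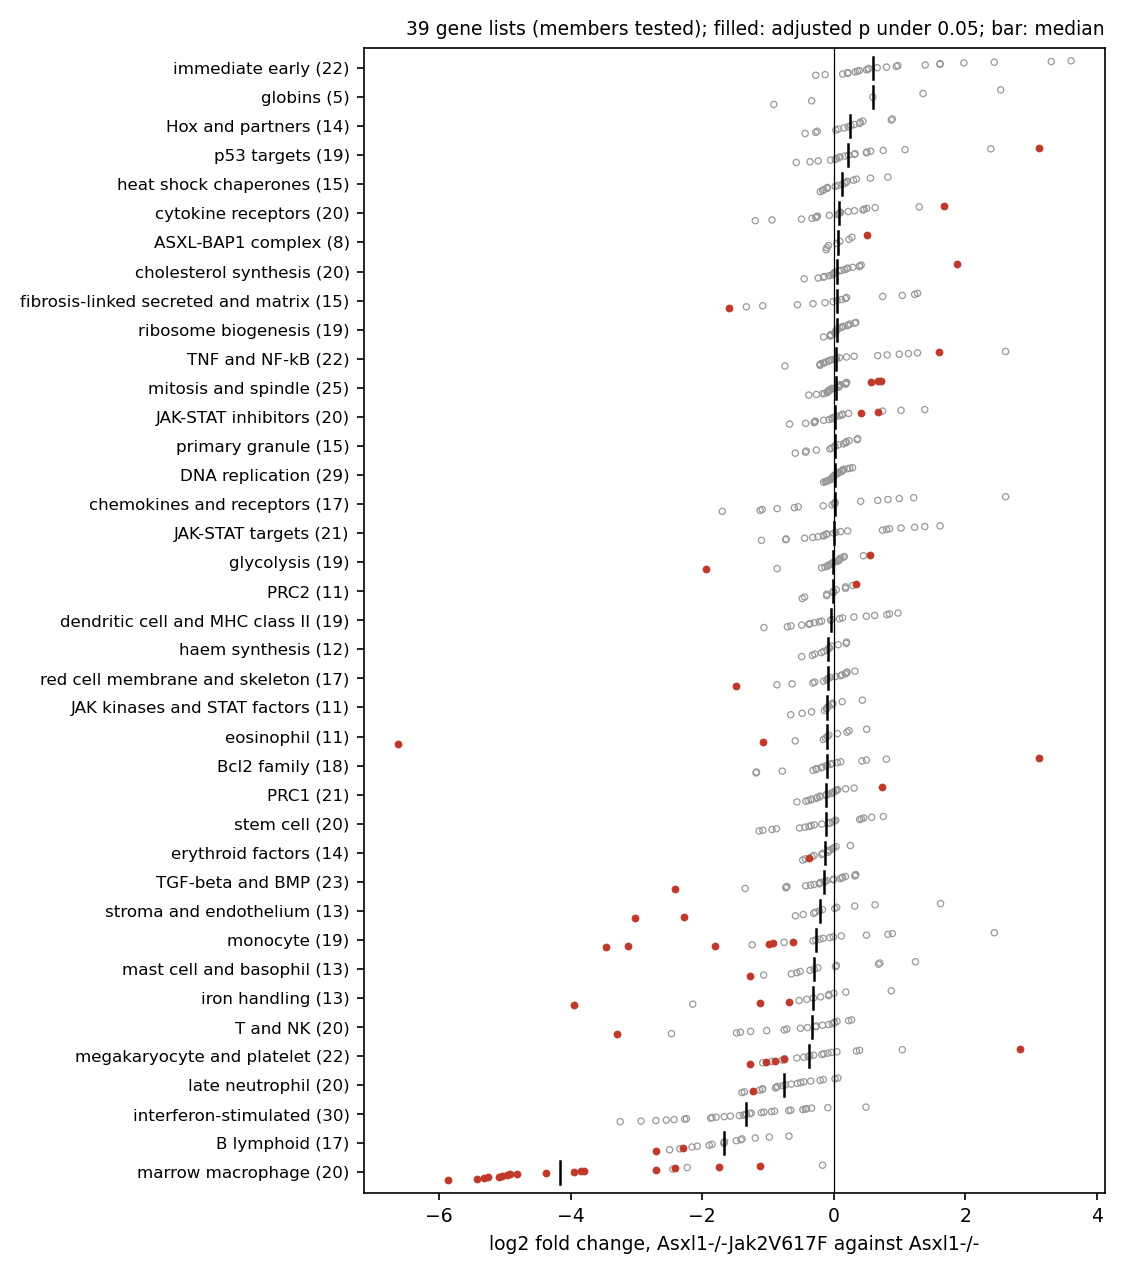
Log2 fold change of Asxl1-/-Jak2V617F over Asxl1-/- (horizontal) for the members of 39 gene lists, ordered by the list's median (bar), with filled points for an adjusted p under 0.05. The marrow macrophage list lies furthest left, with 17 of 20 filled points and a median of -4.16, and 14 lists hold no filled point.

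Among protein-coding genes the 380 risers had a median length of 10196 bases and the 339 fallers one of 3356, against 4338 over the 12518 tested. With protein-coding genes split by length into 4 sets of like size, 291 rose and 49 fell in the longest set, and 25 rose and 128 fell in the shortest. Malat1, a nuclear non-coding RNA on chromosome 19, was at 609.7, 572 and 971 CPM against 147 and 195 CPM (2.07 ± 0.25, adjusted p = 0.00247). Of 530 autosomal genes in the annotation class TEC, loci with transcript evidence still to be tested, 66 rose and 1 fell (median 1.19). Of 66 sense-intronic genes 6 rose and 0 fell (median 1.18), and of 524 antisense genes 23 rose and 2 fell (median 0.49), without a stated strand setting. TEC and sense-intronic genes together took 0.0831 to 0.106% of counts in Asxl1-/-Jak2V617F, 0.0484 and 0.0534% in Asxl1-/- and 0.0953 to 0.141% in the other 6 libraries. The 2 Asxl1-/- libraries were thus the lowest of all 11 in the share of these classes, in Malat1 and in the long-gene measure, and the part of this in the rises was not tested.

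**Figure D5:**
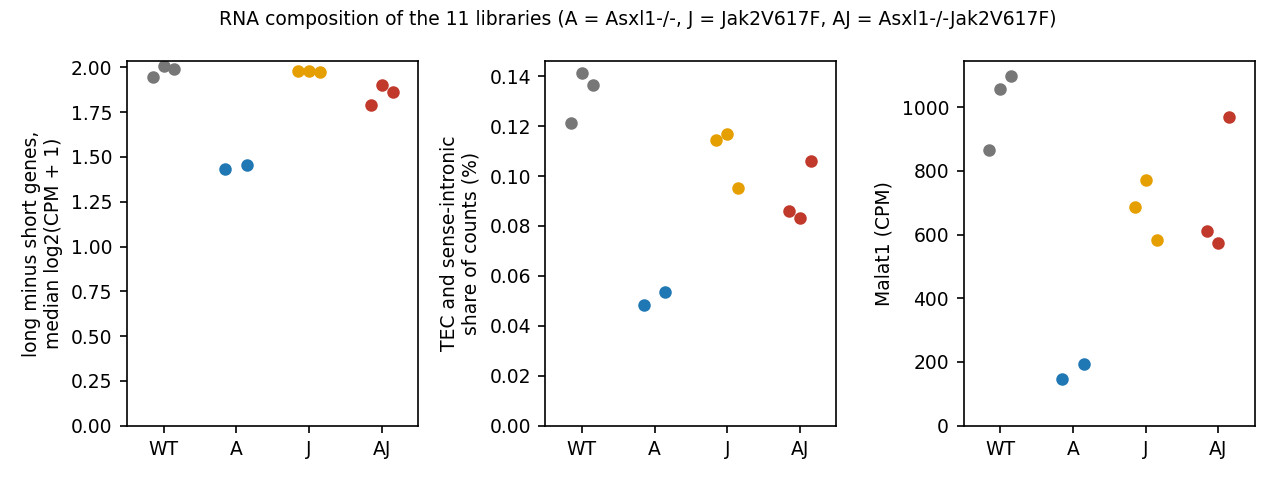
Difference between the medians of long and short protein-coding genes (left), share of counts on TEC and sense-intronic genes (middle) and Malat1 level (right) in each of the 11 libraries, with a point per library and vertical axes that start at 0. Both Asxl1-/- points are the lowest in each panel, for Malat1 at 147 and 195 CPM against at least 572 CPM elsewhere.

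Ubn2, a subunit of the HIRA histone H3.3 chaperone, was at 109.9, 102 and 101 CPM against 40.0 and 44.0 CPM (1.31 ± 0.11, adjusted p = 0.000355), with 116 to 120.5 CPM in WT, and it passed in all 13 alternatives. Ago3, an Argonaute of small RNA silencing (1.22 ± 0.17, adjusted p = 0.00347), and Vasn, a cell surface protein that binds TGF-beta (2.12 ± 0.23, adjusted p = 0.00155), also passed in all 13, as did Malat1. Both were higher in WT, at 31.8 to 36.6 CPM for Ago3 and 35.4 to 51.0 CPM for Vasn, than in Asxl1-/-, at 11.6 and 13.3 CPM and at 5.43 and 6.45 CPM. Of 25 mitosis and spindle genes 3 rose, Cenpe (0.72 ± 0.12, adjusted p = 0.00854), the kinesin of chromosome alignment, Cenpf (0.68 ± 0.16, adjusted p = 0.0326) and the proliferation marker Mki67 (0.56 ± 0.10, adjusted p = 0.012), and 22 did not pass (median 0.03). None of 29 DNA replication genes passed in edgeR or DESeq2, and 1 had an unadjusted p under 0.05. Mki67 was at 1108, 1080.3 and 1172 CPM against 769 and 748 CPM, with 1127 to 1355 CPM in WT. Of the chromatin lists, 1 of 8 ASXL-BAP1 genes, 1 of 11 PRC2 genes and 1 of 21 PRC1 genes rose, against 3.31% of all genes tested. None was called lower. At an unadjusted p under 0.05, 5 PRC1 genes were lower and 2 higher, and 14 of the 21 changes were negative. For PRC2 these counts were 0 lower and 3 higher. Asxl2, the paralogue of Asxl1, was at 111, 115 and 99.3 CPM against 72.5 and 80.1 CPM (0.51 ± 0.08, adjusted p = 0.00785) and at 106 to 108 CPM in WT. The calls of Cenpe, Mki67 and Asxl2 were lost without either Asxl1-/- library and with the sex term; those of Cenpf also without Asxl1-/-Jak2V617F 2 or 3.

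The effect of Jak2V617F differed between the Asxl1-/- and WT backgrounds for 6571 autosomal genes; over all chromosomes 41.6% of genes tested passed. Of the 869 genes called here, 559 were among them, 391 risers and 168 fallers. The difference contains the contrast by which the 869 were called, from the same libraries. This overlap is therefore not independent of the call. The genes of smallest adjusted p for this difference fell on the WT background and moved little on the other. Rab44, a large Rab GTPase of granulocytes and mast cells, was at 481, 472 and 404 CPM in Asxl1-/-Jak2V617F and at 348 and 354 CPM in Asxl1-/- (0.36 ± 0.14, adjusted p = 0.151), but at 62.4, 46.2 and 54.8 CPM in Jak2V617F and at 536, 685 and 637 CPM in WT. The 3 Jak2V617F libraries were the lowest of the 11, and the difference of effects was 3.87 (adjusted p = 1.98e-06). Nin, ninein of the centrosome, was at 504, 544 and 468 CPM against 328 and 337 CPM (0.60 ± 0.11, adjusted p = 0.0128) and fell by 2.02 on the WT background. Ikbke, a kinase of innate signalling, likewise rose (0.78 ± 0.15, adjusted p = 0.0146) and fell by 2.69 on the WT background. The rises of Nin and Ikbke were lost without either Asxl1-/- library and with the sex term. Others of this kind were Itih5, Mcf2l, Rps6ka2, Cldn15 and Rab3d. Their changes on the Asxl1-/- background of -0.34 to 0.31 did not pass. The remaining ones were Tmx4, which rose by 0.49, and Pimreg, which fell by 0.50. Both calls were lost without either Asxl1-/- library and with the sex term. That of Tmx4 was lost also without Asxl1-/-Jak2V617F 1 or 2, and that of Pimreg without any 1 of the 5 libraries.

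Of the most abundant genes called, Lcn2, Mki67, Psap and Malat1 are given above. Actb, beta-actin, was at 2809.6, 2644 and 2066 CPM against 3746 and 3592 CPM (-0.55 ± 0.14, adjusted p = 0.0407), and the actin-binding Pfn1 fell by 0.42 ± 0.10 (adjusted p = 0.0361). The mitochondrial Aldh2 (-0.51 ± 0.10, adjusted p = 0.0142) and Ucp2 (-0.74 ± 0.12, adjusted p = 0.00754) fell, as did Itm2b, a membrane protein gene (-0.75 ± 0.14, adjusted p = 0.0131). The translation factor subunit Eif3a (0.47 ± 0.11, adjusted p = 0.0311) and the splicing factor Hnrnph1 (0.41 ± 0.10, adjusted p = 0.0322) rose. Except for Ucp2, which passed without Asxl1-/- 1, these calls were lost without either Asxl1-/- library, and all 7 were lost with the sex term. Those of Actb, Eif3a and Hnrnph1 were lost also without Asxl1-/-Jak2V617F 2 or 3, and that of Aldh2 without Asxl1-/-Jak2V617F 2. That of Pfn1 was lost without any 1 of the 5 libraries.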

How the data were processed

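RNA-seq of c-kit+ marrow cells from 4 genotypes (11 libraries) was used; the chromatin samples were not used here. Deposited values were whole-number read counts per gene, per the file headers. Per the submitters' processing notes, HISAT2 2.0.5, featureCounts 1.5.0-p3, DESeq2 1.16.1 and mm10 were used; the labels name no strand setting, annotation or treatment of multimapping reads. Counts were tested in R 4.3.3 with edgeR 4.0.16 (TMM scaling, filterByExpr by genotype, robust quasi-likelihood fit of all 11 libraries, Benjamini-Hochberg adjustment over 16262 genes, threshold 0.05). DESeq2 1.42.0 and the settings named in the closing section were alternatives. CPM values use TMM-scaled library sizes, ± is a standard error of the log2 fold change unless stated, and scripts were tested on simulated data. Promoters came from RefSeq (GRCm38.p6). The members and lists were chosen with earlier results of these data known. The text names genes from these sets: Asxl1 and Jak2; the 15 risers and 15 fallers of largest change among called protein-coding genes with a mean of at least 2 CPM and no overlap; the 4 members of smallest adjusted p in each list; the JAK-STAT lists; the 12 genes of smallest adjusted p for the difference of effects; and the 10 most abundant called genes. Outside these sets, Mpo, Malat1, Vcam1, Emilin2, Ubn2, Fabp5, C1qb, C1qc, Cd5l, Ago3, Tcrg-C1, Maf, Erfe, Cd300ld and Marco were named after their values were seen. Some genes the rule takes are not reported here.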

Additional observations from a re-analysis of the deposited data

Results flagged for a closer look

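The effect of Jak2V617F differed between the Asxl1-/- and WT backgrounds for 6571 autosomal genes, and for genes named in the report this is given here because edgeR's interaction test passed at an adjusted p of 0.05. Each value is the log2 change on the Asxl1-/- background minus that on the WT background. A positive value means that the change on the Asxl1-/- background was the higher of the pair. Sexes were not balanced: both Asxl1-/- libraries were male, as was 1 of the 3 Jak2V617F libraries, and with a sex term the count was 2995.

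The genes of smallest adjusted p had differences of 3.87 for Rab44, 3.66 for Itih5, 2.62 for Nin, 4.31 for Mcf2l, 3.47 for Ikbke, 2.34 for Tmx4, 2.88 for Rab3d, 3.22 for Rps6ka2, 2.83 for Pimreg and 3.45 for Cldn15. Among genes higher with Jak2V617F on both backgrounds, the differences were -2.87 for C2cd4a, -2.95 for Podxl, -1.88 for Cda, -2.93 for Plek2, -3.02 for Tcrg-C1, -1.998 for Sfrp4, -1.18 for Fabp5 and -2.70 for Erfe, all negative. Pathway genes differed by -0.85 for Jak2, 1.57 for Cbl, 2.87 for Csf2rb2, 2.45 for Csf2rb, 3.24 for Csf3r, -2.004 for Epor, 1.12 for Stat3 and -0.83 for Stat5a.

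Macrophage and monocyte genes differed by -3.63 for Mertk, -3.49 for Spic, -2.46 for Mrc1, -1.90 for Cd163, -2.58 for Slco2b1, -1.73 for Ctss, -0.91 for Psap, 1.21 for Tyrobp and 3.12 for Ccr2. Granulocyte, mast cell and lymphoid genes differed by 3.89 for Mpo, 1.94 for Lcn2, -3.85 for Ccr3, 1.66 for Ear2, 1.10 for Cpa3 and 2.31 for Rag2. Erythroid and platelet genes differed by -3.13 for Cd36, 0.63 for Nfe2, 4.20 for Selp, 1.65 for Mmrn1, 1.67 for Pf4 and 1.42 for Cd9.

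Nuclear, chromatin and division genes differed by 2.63 for Malat1, 1.03 for Ubn2, 1.01 for Ago3, 3.69 for Vasn, 0.97 for Cenpe, 1.13 for Cenpf, 0.56 for Mki67 and 0.84 for Hnrnph1. The abundant genes differed by 1.23 for Aldh2, -0.73 for Ucp2 and 0.99 for Itm2b. Other risers differed by 4.09 for Ptgs2, 5.18 for Mgam and 2.27 for Nfkbiz.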

How the results depend on the processing

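The count of 869 autosomal genes called (517 higher, 352 lower) was within 1.5 times with median-of-ratios scaling, without a filter, with a stricter filter, in a fit of the 2 groups alone and in a fit without the Jak2V617F libraries. It moved further with DESeq2 (1416; 818 higher, 598 lower) and with a sex term (51; 50 higher, 1 lower); the cause was not tested. The fits that left out 1 library each gave 84 to 726 calls (53 to 407 higher, 31 to 319 lower), within 1.5 times only without Asxl1-/-Jak2V617F 3 (726). The replicate block gave 565 calls, 328 of them higher, with 528 shared with the fit without it. Deviations of same-numbered libraries from their group means correlated at 0.04 and -0.11 across genes. The deviations of the 2 Asxl1-/- libraries mirror each other, so these values cannot decide whether the numbers pair the libraries. The difference of effects, 6571 genes, moved to 2995 with the sex term and lay between 4358 and 6804 with a library left out, the lowest without Asxl1-/- 1. Its fit of only the groups in the contrast is the fit of all groups, so it was not run separately. Jak2V617F against WT stayed at 7191 to 8611 calls around 8446 in the alternatives tried. No result changed direction in a way that reversed a call. With the sex term 32 named genes changed sign, and these passed neither with that term nor without it. Many of the 268 named genes did not pass in edgeR's fit of all libraries, and only those that passed could lose a call. Of those that passed, 87 no longer did with the sex term, and calls were also lost without either Asxl1-/- library. Another 33 that did not pass in edgeR's fit of all libraries passed in DESeq2. With 1 library left in Asxl1-/-, it is assumed to vary like the other groups. Depth limits genes of few counts: Vstm4, Col14a1 and others near 0 have levels but no usable fold.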
